A study of Mus musculus with 19 samples.

Results

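Galectins are small lectins that bind β-galactosides, the galactose-bearing sugars at the ends of glycoprotein and glycolipid glycans. Cells release them without a signal peptide, and outside the cell they bridge glycoproteins on cell surfaces and in the matrix. Inside the cell they bind glycans exposed on damaged lysosomes. Prototype galectins (galectin-1, galectin-2) have a single carbohydrate recognition domain, the chimera-type galectin-3 joins such a domain to a long repetitive tail, and tandem-repeat galectins (galectin-4, galectin-8, galectin-9) join a pair of different domains by a linker. In pancreatic cancer galectin-1 is best known from the stroma, and galectin-3 and galectin-4 from the carcinoma cells.

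The genes described are Lgals1, Lgals2, Lgals3, Lgals4, Lgals8 and Lgals9, which encode the galectins of the same numbers, and Lgals3bp, which encodes a secreted glycoprotein that galectin-3 binds and is no galectin itself. These 7 of the 51707 genes in the tables form a listed gene family, and Lgals3 was chosen by its fall in EpCAM+ cells with neratinib, so values of that contrast are given as a description without a test. All 7 passed the filter on low counts in every comparison below. Samples came from pancreatic tumours grown from orthotopic T-LOH KPC organoids, mouse pancreatic cancer organoids, in C57BL/6J mice, and every tumour carried that organoid genotype. The mice received neratinib, an irreversible inhibitor of the ERBB receptor tyrosine kinases, or vehicle for 2 weeks. The sources used here give neither the number of organoid lines nor the age of the mice. Flow cytometry gave PDPN+ cells, labelled as cancer-associated fibroblasts, from 4 vehicle and 4 neratinib mice, and EpCAM+ cells, labelled as epithelial, from 6 vehicle and 5 neratinib mice. Mice are named here by the 5-digit number of their sample titles, an inferred reading, with V for vehicle or N for neratinib before it. On that reading 8 of 11 animals gave both populations.

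Libraries held 30.3 to 48.1 M reads (M, mega) assigned to genes in PDPN+ cells and 39.4 to 75.4 M reads in EpCAM+ cells. The sort matched the labels: all 8 fibroblast markers were higher and all 7 epithelial markers lower in PDPN+ libraries. Mesothelial markers summed to 728 to 2640.3 CPM (read counts scaled to library size) in PDPN+ libraries and to 724 to 1253 CPM in EpCAM+ libraries. Of the 4 markers 3 were higher in PDPN+ libraries, while 1 was not. On the first principal component V53175, V53176 and N53178 stood apart among EpCAM+ libraries, and V53175 and V53188 among PDPN+ libraries. Mitochondrial genes took 6.14 to 19.4% of PDPN+ reads and 2.15 to 2.89% of EpCAM+ reads. In these bulk samples fewer cells of a type and less RNA per cell cannot be told apart.

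The galactose-binding face of each galectin domain carries a run of histidine, any residue, asparagine, proline and arginine, and it marks which members can bind sugar in the usual way. The coding sequence around that run is shown here because it separates the galectins from Lgals3bp. Each line gives bases from a GENCODE M21 transcript, with the 5 codons of the run in capitals.
Lgals1: tgcctaCACTTCAATCCTCGCttcaatgcc
Lgals2: aacctgCATTTTAACCCTCGCttcgatgaa
Lgals3: gccttcCACTTTAACCCCCGCttcaatgag
Lgals4, first domain: gctttcCACTTCAATCCCCGCtttgatggc
Lgals4, second domain: gctttaCACCTAAACCCCCGCataggtgac
Lgals8, first domain: gccttcCACTTTAACCCTCGGttcaaaagg
Lgals8, second domain: gctctgCACTTGAACCCACGCctcaatgtg
Lgals9, first domain: gccttcCACTTCAACCCCCGGtttgaggaa
Lgals9, second domain: gctttcCACCTGAACCCCCGTttcaatgag
The run occurred once in the coding sequences of Lgals1 (135 residues), Lgals2 (130) and Lgals3 (264), where it began at residue 45, 45 and 172. Lgals4 (326 residues), Lgals8 (316) and the longer Lgals9 form (353) held it at 2 places, while the 577-residue coding sequence of Lgals3bp held it at none.

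To examine how the galectins divide between the sorted populations, the 8 PDPN+ libraries were compared with the 11 EpCAM+ libraries. The summed level of the 6 galectins was 7003 ± 1300.1 TPM in PDPN+ libraries (SD, n = 8) and 7060.4 ± 992 TPM in EpCAM+ libraries (n = 11), where TPM is a level scaled to library size and per transcript length. The make-up of that sum was different. Lgals1 made up 92.6 ± 2.20% of it in PDPN+ cells. In EpCAM+ cells Lgals4 made up 46.6 ± 4.66%, Lgals2 26.8 ± 4.34%, Lgals3 13.5 ± 3.73% and Lgals1 7.44 ± 2.28%.

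**Figure D1:**
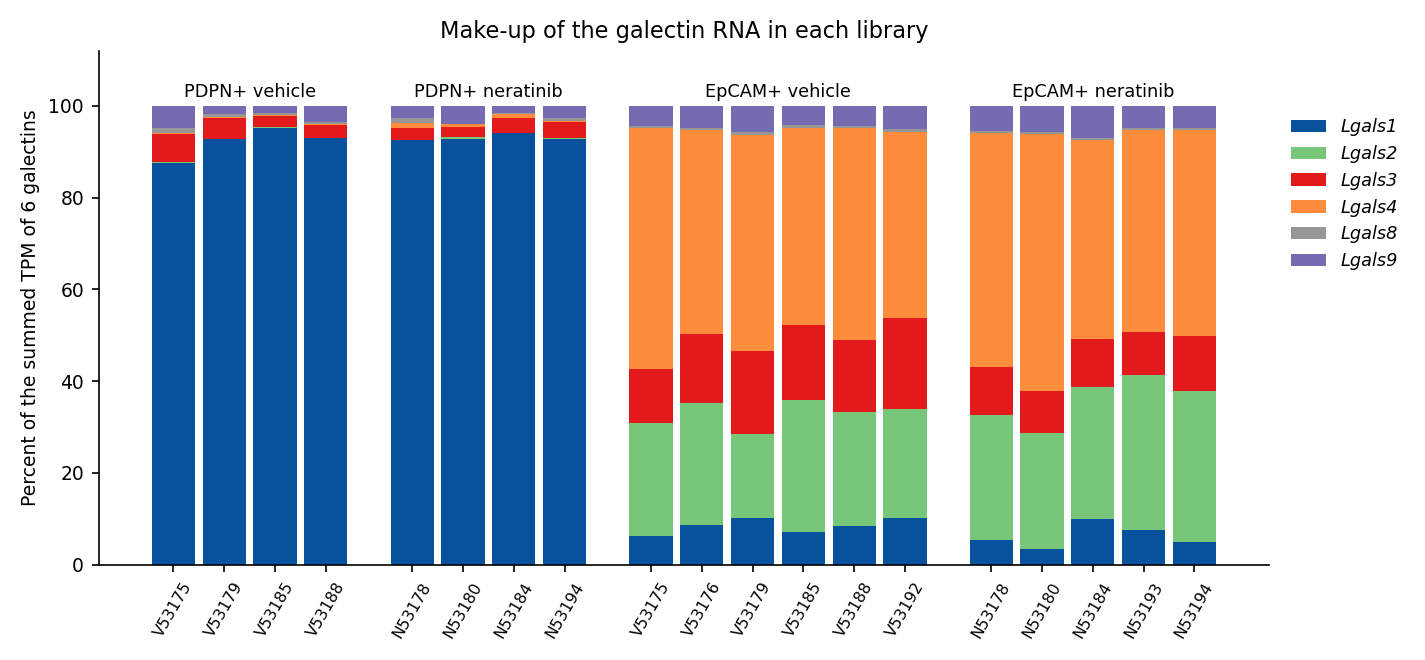
Stacked bars give, for each of the 19 libraries, the percent of the summed TPM of 6 galectin genes held by each gene; Lgals3bp is left out because it is no galectin. Lgals1 fills 87.6 to 95.1% of each PDPN+ bar and 3.37 to 10.1% of each EpCAM+ bar.

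Of the 7 genes, 1 was higher and 4 were lower in PDPN+ cells by edgeR's quasi-likelihood test at an adjusted p under 0.05, and 2 did not pass. Over all 19626 genes tested 24.3% were called higher and 25.0% lower. The median log2 difference was -0.39 over the 7 genes and -0.13 over all genes tested. For 4 of the 7, Lgals1, Lgals2, Lgals3 and Lgals4, the PDPN+ and EpCAM+ libraries did not overlap in CPM, as was so for 19.1% of all genes tested. With animal as a block 6792 genes were called in place of 9673, of which 38.2% were higher in PDPN+ cells in place of 49.2%. That fit used only the 8 animals with both populations. On the log2(TPM + 1) scale the share higher was 26.9%, and the median of all genes moved to -0.63.

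**Figure D2:**
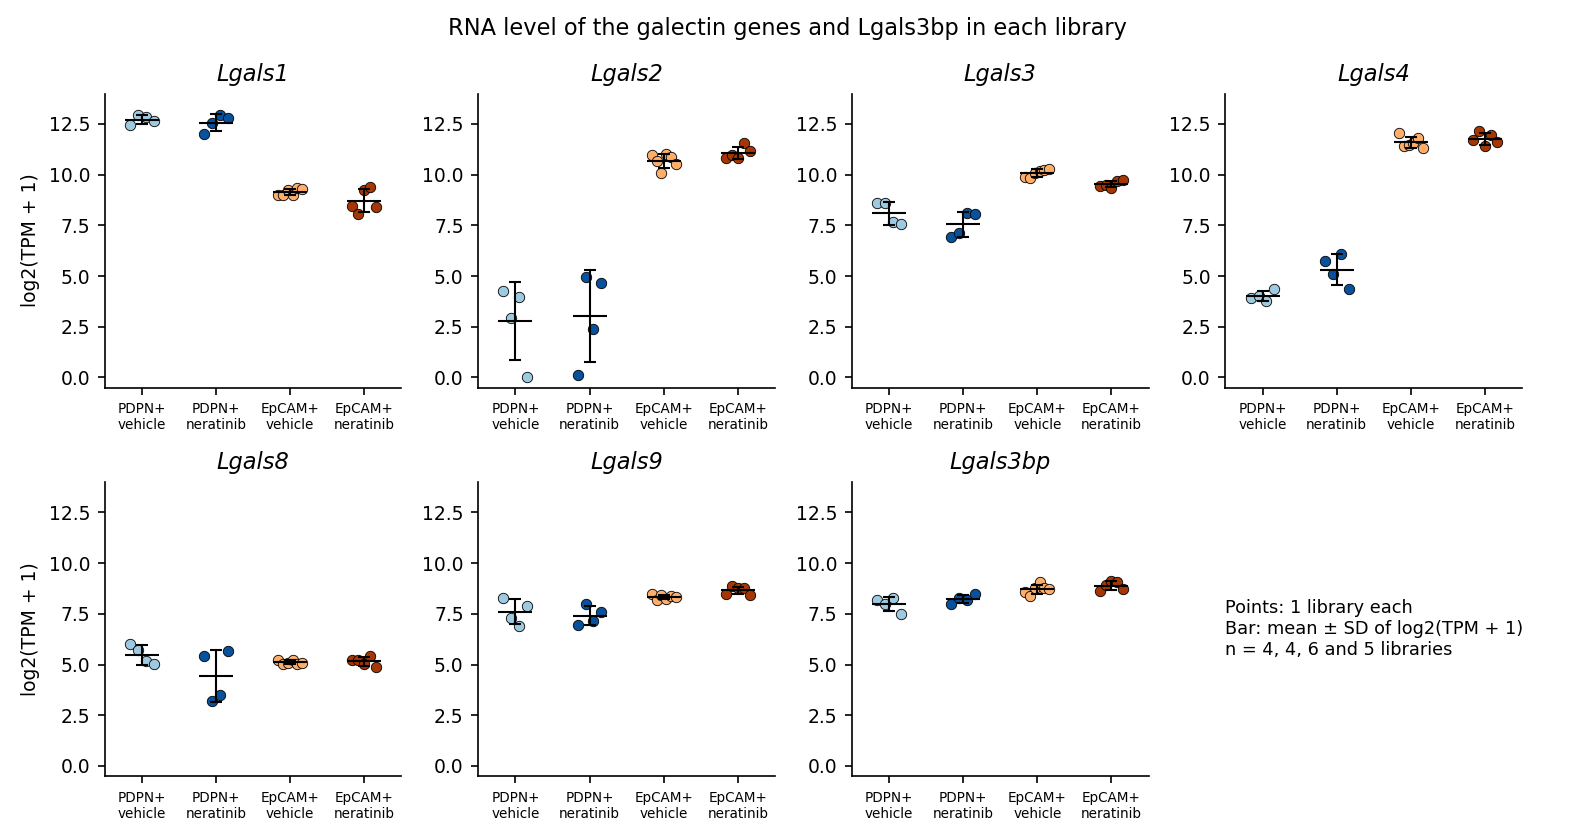
Each panel gives 1 gene, with log2(TPM + 1) on the vertical axis and 1 point per library in the 4 groups; bars give mean ± SD. Lgals1 lies higher in PDPN+ libraries, Lgals2, Lgals3 and Lgals4 lie higher in EpCAM+ libraries with no overlap, and Lgals8 ranges wider in PDPN+ (8.09 to 64.3 TPM) than in EpCAM+ libraries (28.8 to 41.9 TPM).

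Lgals1 (ENSMUSG00000068220) encodes the prototype galectin-1, a dimer known for binding integrins, laminin and T cell glycoproteins. Its level in PDPN+ vehicle libraries was 5577 TPM in V53175, 7743 in V53179, 7422 in V53185 and 6322 in V53188. With neratinib PDPN+ libraries stood at 4123 in N53178, 5920.0 in N53180, 7842 in N53184 and 6985 in N53194. EpCAM+ vehicle libraries ranged from 507 to 649.9 TPM with a median of 556, and the 5 EpCAM+ neratinib libraries stood at 352, 269, 614, 677 and 338 (N53178, N53180, N53184, N53193, N53194). Every PDPN+ library lay above every EpCAM+ library. The log2 difference was 4.20 (SE 0.178), an 18.4-fold higher level (edgeR adjusted p = 3.83e-12, higher in 8 of 8 PDPN+ libraries). It was 4.01 (SE 0.239) with vehicle and 4.39 (SE 0.261) with neratinib.

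Lgals2 (ENSMUSG00000043501) encodes the prototype galectin-2, a lectin of the gut epithelium. EpCAM+ vehicle libraries ranged from 1076 to 2042 TPM (median 1747). EpCAM+ neratinib libraries stood at 1778, 2026, 1782, 3011 and 2310.3 TPM in the same order of mice. PDPN+ libraries stood far lower, at 17.9, 6.65, 14.5 and 0 TPM in V53175, V53179, V53185 and V53188 and at 0.0723, 30.4, 4.30 and 24.6 TPM in N53178, N53180, N53184 and N53194. The library of V53188 had 0 reads and that of N53178 had 1, and a count of 0 allows up to 0.0817 CPM in V53188. The log2 difference was -6.87 (SE 0.867, edgeR adjusted p = 2.90e-06), 117-fold on the fitted scale.

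Lgals3 (ENSMUSG00000050335) encodes galectin-3, which is made by many epithelia and by macrophages. Its EpCAM+ vehicle libraries ranged from 912 to 1246 TPM with a median of 1117. In PDPN+ cells it stood at 384, 382, 202 and 187 TPM with vehicle (V53175, V53179, V53185, V53188) and at 119, 139, 271 and 262 TPM with neratinib (N53178, N53180, N53184, N53194). All 8 lay below the lowest EpCAM+ library, N53184 at 654 TPM. The log2 difference was -1.39 (SE 0.197, edgeR adjusted p = 1.07e-05), or -1.26 relative to the median of all genes, and it was -1.44 (SE 0.276) with vehicle and -1.35 (SE 0.282) with neratinib. The SD was 109 TPM on a mean of 288 in the PDPN+ vehicle group and 137 TPM on a mean of 1091 in the EpCAM+ vehicle group. Summed macrophage markers were 63.0 to 678 CPM in PDPN+ libraries and 37.8 to 83.5 CPM in EpCAM+ libraries. Of the 9 macrophage markers tested 4 were higher and 1 lower in PDPN+ cells, and their part in the Lgals3 levels was not tested.

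Lgals4 (ENSMUSG00000053964) encodes the tandem-repeat galectin-4, which sorts glycoproteins and sulphated glycolipids to the apical side of gut epithelia. It was the most abundant of the 7 genes in each of the 11 EpCAM+ libraries. EpCAM+ vehicle libraries ranged from 2532 to 4255 TPM (median 2915), and EpCAM+ neratinib libraries stood at 3321, 4477, 2686, 3928 and 3145 TPM. PDPN+ vehicle libraries stood at 14.0, 15.4, 12.6 and 19.4 TPM, and PDPN+ neratinib libraries at 52.8, 33.2, 66.8 and 19.4 TPM. The populations did not overlap, and the log2 difference was -6.77 (SE 0.385, edgeR adjusted p = 1.10e-10), 109-fold on the fitted scale. Lgals6, a near-identical copy of Lgals4 in some mouse strains, was not analysed here. Whether reads of such a copy were counted with Lgals4 was not tested.

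The levels of Lgals4 and Lgals2 in PDPN+ libraries were set beside those of epithelial markers, each as a percent of its mean CPM over the EpCAM+ libraries. Lgals4 stood at 0.350 to 3.31% (median 0.644%) and Lgals2 at 0 to 2.25% (median 0.643%). The adhesion gene Epcam stood at 0 to 0.179%, and the claudin gene Cldn7 at 0 to 0.279%. The mucin gene Muc1 stood at 0.156 to 0.551%. The cadherin gene Cdh1 stood at 0 to 0.463%, and the claudin gene Cldn4 at 0 to 0.942%. The keratin genes Krt8, Krt18 and Krt19 were at 2.79 to 13.4%, 0.00255 to 7.34% and 3.24 to 15.3%. Lgals4 exceeded Epcam, Cldn7, Muc1 and Cdh1 in every PDPN+ library, and it exceeded Cldn4 in all but V53179 (0.942% for Cldn4) and N53194 (0.519%). Krt8 and Krt19 exceeded Lgals4 in every PDPN+ library, and Krt18 did so in all but V53188. The part of epithelial RNA in the PDPN+ values was not tested.

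Lgals8 (ENSMUSG00000057554) encodes the tandem-repeat galectin-8, a sensor of damaged endosomes that recruits autophagy receptors. It was the lowest of the 7 genes in every EpCAM+ library, at 31.1 to 36.7 TPM with vehicle (median 33.0) and at 36.5, 36.4, 31.3, 41.9 and 28.8 TPM with neratinib. PDPN+ libraries spread wider, at 64.3, 51.1, 34.7 and 31.2 TPM with vehicle and 42.3, 8.09, 10.4 and 49.0 TPM with neratinib. The populations overlapped. The log2 difference of 0.56 (SE 0.310) did not pass (edgeR adjusted p = 0.147), and its sign turned on the log2(TPM + 1) scale (-0.18). That value lies 0.45 above the median of all genes on the same scale, against 0.69 above it by edgeR.

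Lgals9 (ENSMUSG00000001123) encodes the tandem-repeat galectin-9, a ligand of TIM-3, an inhibitory receptor on T cells. EpCAM+ vehicle libraries ranged from 286 to 353 TPM (median 327), and EpCAM+ neratinib libraries stood at 356, 460.2, 433, 430.2 and 340.4 TPM. PDPN+ libraries stood at 311, 156, 119 and 238 TPM with vehicle and 121, 248, 139 and 193 TPM with neratinib. The log2 difference in counts was -0.39 (SE 0.196) and did not pass (edgeR adjusted p = 0.112). It passed under 5 alternatives. With animal as a block it was -0.54 (edgeR adjusted p = 0.0431), and without the low-count filter -0.50 (0.0422). With limma voom it was -0.75 (adjusted p = 0.00313), and on the log2(TPM + 1) scale -0.99 (3.08e-05). Without the PDPN+ libraries that stand apart, V53175 and V53188, it was -0.88 (edgeR adjusted p = 1.88e-04). Leaving out a single library gave a pass without V53175 (-0.61, adjusted p = 0.00963), V53188 (-0.55, 0.0277) or N53180 (-0.54, 0.0277), all from PDPN+ cells. Relative to the median of all genes the difference was -0.26 by edgeR, and with the block it was 0.13.

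Lgals3bp (ENSMUSG00000033880) encodes the galectin-3-binding protein, a secreted scavenger-receptor glycoprotein that interferons induce. PDPN+ libraries stood at 288, 255, 308 and 177 TPM with vehicle and 251, 307, 285 and 352 TPM with neratinib. EpCAM+ libraries ranged from 326 to 531 TPM with vehicle (median 426) and stood at 389.8, 484, 558, 544 and 419 TPM with neratinib. In counts the populations overlapped, with 483 ± 105 CPM (SD, n = 8) against 604 ± 81.1 CPM (n = 11) and a log2 difference of -0.34 (SE 0.120, edgeR adjusted p = 0.0254). That call was lost with transcript length offsets (-0.24, adjusted p = 0.0682). Relative to the median of all genes the difference was -0.21, and it turned to 0.12 with limma voom, to 0.24 with animal as a block and to 0.021 without the low-count filter.

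Within each treatment the same contrast called 4 genes lower with vehicle (Lgals2, Lgals3, Lgals3bp, Lgals4) and 3 with neratinib (Lgals2, Lgals3, Lgals4), and Lgals1 was higher in each. Over all genes 33.1% were called with vehicle and 38.9% with neratinib. With animal as a block these contrasts called 1849 and 2353 genes in place of 6487 and 7627. Each block fit held only that treatment's animals with both populations, and so fewer libraries than the main fit of all 19. The parts of the block and of the smaller set of libraries in this drop were not tested. Lgals3bp was at -0.45 with vehicle (adjusted p = 0.0468, and 0.207 with the block) and at -0.23 with neratinib (adjusted p = 0.322). On the log2(TPM + 1) scale it passed with neratinib (-0.68, limma adjusted p = 0.00307). The vehicle call of Lgals3bp was lost without V53185 or V53188 of the PDPN+ libraries, without V53175, V53179, V53185, V53188 or N53194 of the EpCAM+ libraries, and without the 3 EpCAM+ libraries that stand apart, at adjusted p from 0.0513 to 0.0921. With transcript length offsets it was lost as well (adjusted p = 0.112). Lgals9 did not pass at -0.13 with vehicle or at -0.65 with neratinib, and its alternatives moved it over the threshold in both. With vehicle it passed with limma voom (-0.81), on the log2(TPM + 1) scale (-0.74) and without V53175 and V53188 of the PDPN+ libraries (-1.04). With neratinib it passed on the log2(TPM + 1) scale (-1.25) and without the low-count filter (-0.76). Without both V53175 and V53188 of the PDPN+ libraries it passed as well (-0.71, edgeR adjusted p = 0.00611). Left out alone, V53175, V53179, V53185, V53188 or N53180 of the PDPN+ libraries gave a pass too (-0.90 to -0.70). Lgals8, at 0.91 with vehicle and 0.21 with neratinib, passed with vehicle without V53188 of the PDPN+ libraries (1.10). Whether the population differences of the 7 genes differ between treatments was not tested.

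Levels per length gave each population its own order of genes. In EpCAM+ cells the order by median was Lgals4 (3145 TPM), Lgals2 (1885), Lgals3 (912), Lgals1 (518), Lgals3bp (432), Lgals9 (340.4) and Lgals8 (33.3). Ranges of neighbours overlapped at each step but the last, although Lgals4 exceeded Lgals2 and Lgals2 exceeded Lgals3 in 11 of 11 libraries. In PDPN+ cells the order was Lgals1 (6654 TPM), Lgals3bp (287), Lgals3 (232), Lgals9 (174), Lgals8 (38.5), Lgals4 (19.4) and Lgals2 (10.6). Of these neighbours Lgals1 stood clear of Lgals3bp and Lgals9 clear of Lgals8, and the other ranges overlapped, with Lgals3bp above Lgals3 in 5 of 8 libraries.

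The transcripts that Salmon assigned reads to also differed between the populations. For 6 genes with several transcripts and at least 20 reads in every library, the share of reads given to the most abundant transcript was compared, and 5 of 6 differed by an exact two-sided permutation test over libraries with adjustment over the 6 genes. Shares were not tested over the other genes of the tables. The count of 5 of 6 therefore has no background share beside it and is not a result particular to galectins. Lgals2 has 1 transcript in the tables, so it has no share to compare. The populations did not overlap for Lgals9 and Lgals4. The Lgals4 shares in PDPN+ cells rest on only 431 to 3400 reads per library.

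Lgals9-203, a transcript of 353 residues, holds a coding exon that Lgals9-202, of 322 residues, lacks. That exon, number 5 of Lgals9-203 in GENCODE M21, spans 93 bases (31 codons) and lengthens the linker between the carbohydrate recognition domains. It is shown because it is the coding difference between these transcripts, with its bases in capitals and 15 bases of the neighbouring exons in lower case on each side.
Lgals9-203, exon 5: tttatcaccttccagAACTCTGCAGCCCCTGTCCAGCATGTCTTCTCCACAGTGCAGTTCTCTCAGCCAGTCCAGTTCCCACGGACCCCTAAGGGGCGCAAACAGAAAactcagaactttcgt
Lgals9-203 took 16.1 to 25.4% of Lgals9 reads in EpCAM+ vehicle libraries (median 20.4%). In EpCAM+ neratinib libraries it took 21.9, 24.8, 15.6, 25.3 and 24.7%. PDPN+ vehicle libraries gave it 0, 1.47, 1.22 and 0%, and PDPN+ neratinib libraries 11.2, 0, 0 and 1.71%. So 4 of 8 PDPN+ libraries had no read assigned to the long-linker form, and the highest of them, N53178, lay below the lowest EpCAM+ library. The share of Lgals9-202, the form without the exon, was 97.8 ± 4.37% in PDPN+ cells (SD, n = 8) and 78.6 ± 3.70% in EpCAM+ cells (n = 11), a difference of 19.3 percentage points (exact permutation p = 1.32e-05, the smallest these permutations can give; adjusted p = 3.97e-05). Paired by animal the difference was 18.7 points, in the same direction in 8 of 8 animals (exact sign-flip p = 0.00781, the smallest possible with 8 pairs). Lgals9 had 5060 to 14727 reads per PDPN+ library and 12924 to 30105 per EpCAM+ library.

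**Figure D3:**
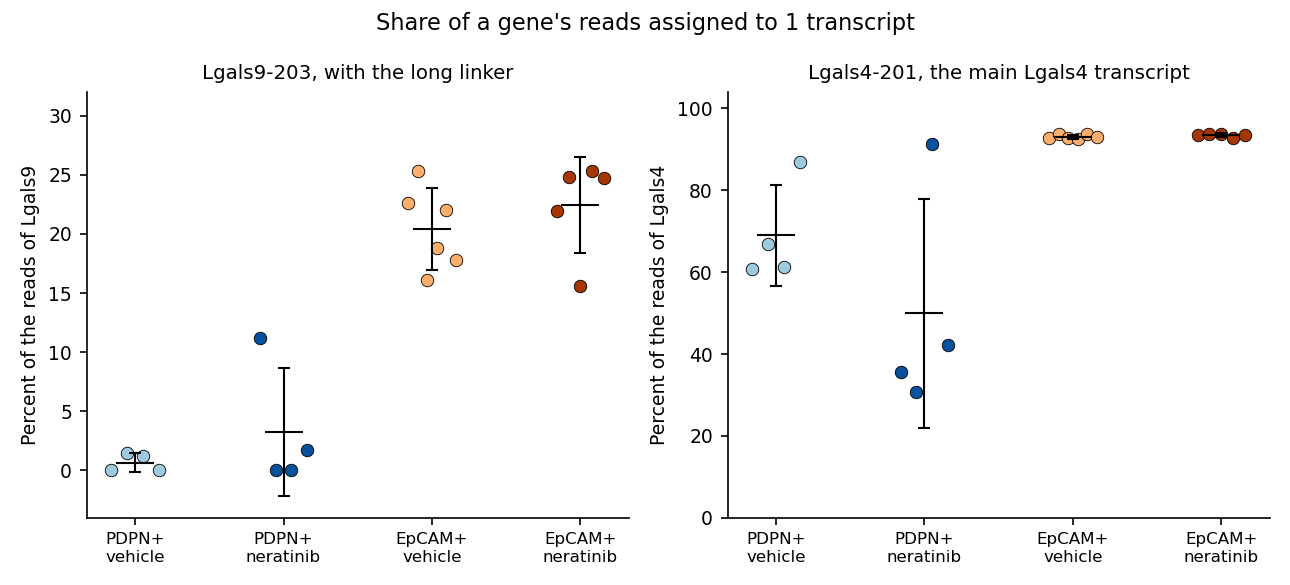
Percent of the reads of Lgals9 assigned to Lgals9-203 (left) and of Lgals4 assigned to Lgals4-201 (right), 1 point per library, with mean ± SD in the 4 groups and different vertical ranges. Lgals9-203 takes 0 to 11.2% in PDPN+ and 15.6 to 25.4% in EpCAM+ libraries, and Lgals4-201 takes 30.7 to 91.2% and 92.6 to 93.8%.

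Lgals4-201, the main Lgals4 transcript, took 93.3 ± 0.492% of Lgals4 reads in EpCAM+ libraries (SD, n = 11) and 59.5 ± 22.4% in PDPN+ libraries (n = 8), a difference of -33.8 points (exact permutation p = 1.32e-05, adjusted p = 3.97e-05). PDPN+ libraries had 431 to 3400 Lgals4 reads against 101982 to 308890 in EpCAM+ libraries. Its share was 60.8, 66.8, 61.1 and 87.0% in V53175, V53179, V53185 and V53188 and 35.6, 30.7, 91.2 and 42.3% in N53178, N53180, N53184 and N53194. The library with the most Lgals4 reads in PDPN+ cells, N53184, had the share nearest to that of EpCAM+ cells. The share did not follow reads in the others. N53178, with the next most reads at 1049, had 35.6%, and V53188, with 682 reads, had 87.0%.

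Shares of the main transcript differed less in the other genes. Lgals1-201 took 99.6 ± 0.308% of Lgals1 reads in PDPN+ and 98.6 ± 0.420% in EpCAM+ libraries (exact permutation adjusted p = 1.59e-04). Lgals3bp-201 took 91.5 ± 4.52% and 96.2 ± 0.862% (exact permutation adjusted p = 0.00145). For Lgals8-201 the shares were 35.8 ± 23.3% and 51.9 ± 5.71% (exact permutation adjusted p = 0.0404), a call that was lost by share of TPM (adjusted p = 0.0932), paired by animal (0.103) and when any 1 of 13 libraries was left out. Those were V53175, V53179, V53185, V53188, N53180 and N53194 of the PDPN+ libraries and V53176, V53179, V53188, V53192, N53178, N53180 and N53193 of the EpCAM+ libraries, with adjusted p from 0.0507 to 0.113. Lgals3-203 took 53.2 ± 5.26% and 50.3 ± 1.16% of Lgals3 reads and did not pass (exact permutation adjusted p = 0.0907). It did pass without V53175 (adjusted p = 0.0235) or N53194 (0.0211) of the PDPN+ libraries. The main Lgals3 transcripts share 1 coding sequence and differ outside it.

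To examine whether galectin RNA differed with ERBB inhibition in EpCAM+ cells, their neratinib and vehicle libraries were compared. Lgals3, chosen by this contrast, stood at 688 TPM in N53178, 723 in N53180, 654 in N53184, 832 in N53193 and 842 in N53194. Vehicle libraries stood at 950.0 TPM in V53175, 912 in V53176, 1068 in V53179, 1165 in V53185, 1202 in V53188 and 1246 in V53192. In CPM all 5 neratinib libraries, at 457 to 557, lay below all 6 vehicle libraries, at 673 to 869. The means were 507 ± 45.7 and 772 ± 78.6 CPM (SD), a log2 difference of -0.61 (SE 0.100), or 1.52-fold lower. The vehicle libraries nearest to the neratinib group were V53176 and V53175, which are among the 3 EpCAM+ libraries that stand apart. Without those 3 the log2 difference was -0.65 (SE 0.114), and leaving out single libraries gave -0.64 to -0.57. Lgals3 made up 16.2 ± 2.80% of the summed galectin TPM with vehicle and 10.3 ± 1.19% with neratinib.

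No other of the 7 genes separated the EpCAM+ treatment groups, and separation was seen for 0.238% of all 17200 genes tested. Because Lgals3 was chosen by this contrast, that share does not measure how unusual its separation is. With edgeR 0% of genes, 0 of 17200, passed at an adjusted p under 0.05 in this contrast, with 524 at an unadjusted p under 0.05 and 8 called by DESeq2. Lgals1 stood at 211 ± 85.3 CPM with neratinib and 281 ± 34.6 with vehicle, a log2 difference of -0.41 (SE 0.232). Its neratinib libraries split, with N53184 (295 CPM) and N53193 (310.4) inside the vehicle range of 227 to 329 and the other 3 below it at 124 to 171. Lgals9 stood at 404 ± 48.5 and 341 ± 40.7 CPM (0.24, SE 0.114), with 3 of 5 neratinib libraries above every vehicle library. Lgals2 stood at 706 ± 149.7 and 571 ± 131 CPM (0.31, SE 0.185). The remaining log2 differences were 0.11 (SE 0.124) for Lgals3bp, 0.070 (SE 0.184) for Lgals4 and 0.029 (SE 0.119) for Lgals8. The signs for Lgals4 and Lgals8 turned when single libraries were left out, with ranges of -0.027 to 0.21 and -0.042 to 0.11. Over the 7 genes 5 differences were positive and 2 negative with a median of 0.070, beside a median near 0 over all genes.

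Markers of other cells were set beside the Lgals3 values. Summed macrophage markers were 37.8 to 68.7 CPM in EpCAM+ vehicle libraries and 45.9 to 83.5 CPM in EpCAM+ neratinib libraries, so the groups overlapped, and 0 or 1 of 10 markers had no reads. Summed epithelial markers were 16971 to 25202 CPM with vehicle and 17181 to 23640.5 CPM with neratinib. Summed acinar markers were 6.66 to 566 CPM with vehicle and 5.82 to 27.5 CPM with neratinib, with 0 to 2 of 5 without reads in either group. Summed mesothelial markers were 735 to 1253 CPM with vehicle (median 989) and 724 to 987 CPM with neratinib (median 805). The groups overlapped in this sum, and the 4 mesothelial markers all had negative log2 differences with a median of -0.59, beside -0.61 for Lgals3. Between the populations 3 of these 4 were higher in PDPN+ cells, and 1 had a negative log2 difference and did not pass. How far the EpCAM+ sum reflects mesothelial cells was not tested. The part of any of these marker lists in the Lgals3 values was not tested.

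**Figure D4:**
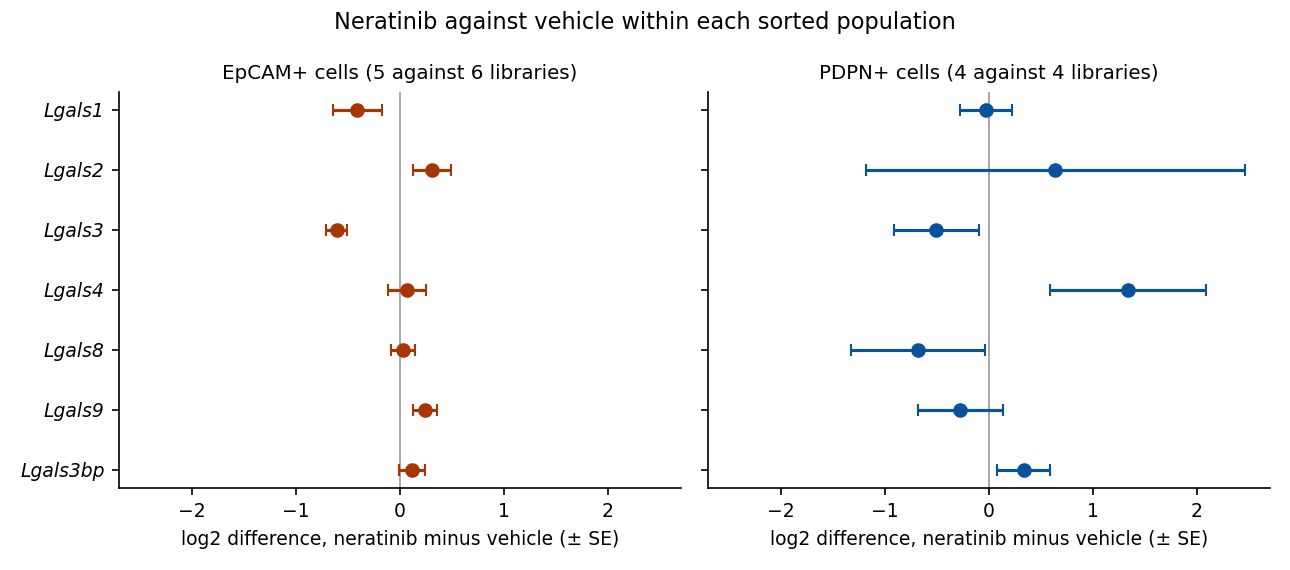
Log2 difference in CPM between neratinib and vehicle libraries with its SE, for 7 genes, in EpCAM+ (left) and PDPN+ cells (right). Lgals3 was chosen by its EpCAM+ value of -0.61. Its PDPN+ value is -0.51 with an SE 0.409, and the widest PDPN+ interval is that of Lgals2.

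In PDPN+ cells the 4 neratinib libraries were compared with the 4 vehicle libraries in the same way. None of the 7 genes passed, and edgeR called 0% of the 14437 genes tested at an adjusted p under 0.05, with 331 at an unadjusted p under 0.05 and 13 called by DESeq2. All 7 genes overlapped between the groups, against 2.27% of all genes tested whose groups did not overlap. Lgals3 stood at 179 ± 81.0 CPM with neratinib and 255 ± 111 with vehicle (SD, n = 4 each), a log2 difference of -0.51 (SE 0.409, edgeR adjusted p = 1.00), and 2 of 4 neratinib libraries lay below every vehicle library. Set beside the EpCAM+ value of -0.61 (SE 0.100), the difference between the populations was not tested. The PDPN+ macrophage markers summed to 75.3 to 285 CPM with vehicle and 63.0 to 678 CPM with neratinib, with the highest Lgals3 level of the neratinib group in the library with the highest macrophage sum, N53184.

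Lgals1, the dominant galectin of PDPN+ cells, stood at 3959 ± 1194 CPM with neratinib and 4051 ± 563 with vehicle (log2 difference -0.033, SE 0.251). Lgals4 stood at 38.0 ± 34.0 and 15.0 ± 5.47 CPM (1.34, SE 0.751), with N53178 and N53184 above every vehicle library. Epithelial markers summed to 427 and 1598 CPM in those libraries, against 536 to 1799 CPM in the vehicle group. In PDPN+ libraries this sum is mainly RNA of the keratin genes Krt8, Krt18 and Krt19. These stood at higher percents of the EpCAM+ mean than the other epithelial markers in each library. As a percent of the EpCAM+ mean, N53184 had Cdh1 at 0.463% and Cldn4 at 0.685%, against highest vehicle values of 0.438% and 0.942%, both in V53179, while N53178 had each of them near 0. The rest of the epithelial list in N53184 also lay below the highest vehicle values. Epcam was at 0.0224% against 0.179%, and Cldn7 at 0.00557% against 0.279%. Krt8, Krt18 and Krt19 were at 11.1, 5.99 and 12.2% against 11.7, 7.28 and 15.3%. The part of epithelial RNA in this difference was not tested. Lgals8 stood at 57.1 ± 41.0 and 91.5 ± 60.9 CPM (-0.68, SE 0.644), and its neratinib libraries fell into a high pair, N53178 and N53194, and a low pair, N53180 and N53184. The other differences were 0.33 (SE 0.253) for Lgals3bp, 0.64 (SE 1.83) for Lgals2 and -0.28 (SE 0.411) for Lgals9. The Lgals9 sign turned to 0.57 without V53175 and V53188. The SE of the 7 genes in this contrast ran from 0.251 to 1.83.

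Other galectin genes of the mouse were looked at for comparison. Lgals7, which encodes the prototype galectin-7 of stratified epithelia, was higher in PDPN+ cells, at 125 ± 69.5 CPM against 2.67 ± 1.09 (log2 difference 5.52, SE 0.343, edgeR adjusted p = 3.46e-10), with 8 of 8 PDPN+ libraries above every EpCAM+ library. Per length it stood at 79.2 to 476 TPM in PDPN+ libraries, a range that overlaps that of Lgals3 there (119 to 384 TPM) and extends past both ends. Lgals12, which encodes an adipocyte galectin, was lower in PDPN+ cells, at 0.0667 ± 0.119 against 6.84 ± 2.83 CPM (log2 difference -7.17, SE 0.826, edgeR adjusted p = 9.04e-07), from 0 to 19 reads per PDPN+ library. On the log2(TPM + 1) scale, which compresses low levels, the difference was -2.27 (SE 0.190). The galectin-like gene Lgalsl, at 46.5 ± 48.2 and 23.5 ± 2.98 CPM, did not pass (log2 difference 1.00, edgeR adjusted p = 0.0697). It passed with transcript length offsets (adjusted p = 0.0477) and without V53175, N53178 or N53184 of the PDPN+ libraries (0.0388, 0.0429 and 0.0383). Grifin, a lens galectin relative, had 0 to 9 reads per library and was not tested.

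Galectins bind glycans whose branches are built by Golgi enzymes, and these genes were taken as a list. Of 10 glycan synthesis genes 4 were lower in PDPN+ cells, 1 was higher and 5 did not pass, beside 25.0% lower and 24.3% higher over all genes, so the called share is near the background. The median log2 difference was -1.26 over the list and -0.13 over all genes. Lower were Mgat4a (-3.94, SE 0.809, edgeR adjusted p = 5.09e-04) and Mgat5 (-2.50, SE 0.454, adjusted p = 1.60e-04), whose enzymes add N-glycan branches. Gcnt1 and C1galt1, which build O-glycan cores, were lower as well, and C1galt1 was at -1.66 (SE 0.460, edgeR adjusted p = 0.00558). B4galt1, which adds the galactose that galectins bind, was higher at 171 ± 51.5 against 90.8 ± 13.1 CPM (0.92, SE 0.155). That call was lost on the log2(TPM + 1) scale (0.37, adjusted p = 0.107). Both enzymes that limit galectin binding were lower in PDPN+ cells. Mgat3, which adds a bisecting sugar, was at -2.34 (SE 0.318). St6gal1, which caps galactose with sialic acid, was at -2.19 (SE 0.658), a call lost with limma voom (adjusted p = 0.0764).

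Of 13 surface, matrix and lysosomal partners 6 were higher in PDPN+ cells, 4 lower and 3 did not pass, beside the same 24.3% higher and 25.0% lower over all genes. The median log2 difference was 0.50 over the list and -0.13 over all genes. The higher ones included the laminin gene Lamc1 (1.41, SE 0.145), Plat, which encodes tissue plasminogen activator (1.65, SE 0.238), and the semaphorin and VEGF co-receptor gene Nrp1 (3.61, SE 0.557). The lower ones included Muc1, a mucin that galectin-3 binds, at 6.24 ± 3.36 against 2082 ± 345 CPM (-8.40, SE 0.337), and Bsg, which encodes basigin (-2.60, SE 0.262). Havcr2, which encodes the galectin-9 receptor TIM-3 of immune cells, was lower too (-4.69, SE 0.898) but reached a mean of only 2.11 CPM in EpCAM+ cells. Of 3 cytosolic partners tested Tsg101, an ESCRT gene, was at -1.25 (SE 0.163) and Trim16 at -1.95 (SE 0.737, edgeR adjusted p = 0.0350), while Pdcd6ip did not pass. The Trim16 call was lost without V53179, V53185, N53178, N53180 or N53184 of the PDPN+ libraries and without N53180 of the EpCAM+ libraries (adjusted p 0.0523 to 0.0577). It was also lost with transcript length offsets (0.0526), without the 3 EpCAM+ libraries that stand apart (0.0578) and with animal as a block (0.0558). With neratinib none of these listed genes passed in PDPN+ cells, and in EpCAM+ cells the medians were -0.13 for glycan synthesis genes and -0.15 for surface, matrix and lysosomal partners.

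Genes whose pattern over libraries was most like that of a galectin were found by Pearson correlation of log2 CPM among 10767 EpCAM+ and 11071 PDPN+ genes with a mean of at least 4 CPM. These correlations are descriptions, and the libraries of a population share their scaling and, where they hold, their outlying samples. Vehicle and neratinib libraries were pooled, so the treatment difference by which Lgals3 was chosen enters its EpCAM+ correlations. Over 11 EpCAM+ libraries Lgals3 was most like Ggh (r = 0.903), Tpm2 (0.881), Mmp13 (0.819), Pvr (0.809) and Gm4316 (0.802). Ggh encodes a gamma-glutamyl hydrolase, Tpm2 a tropomyosin, Mmp13 a collagenase and Pvr the poliovirus receptor. Lgals4 was most like Phlda2 (0.933), Degs2 (0.932), Asb13 (0.922), Pdxdc1 (0.920) and Acy3 (0.910), and Degs2 encodes a sphingolipid desaturase and hydroxylase.

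Over 8 PDPN+ libraries Lgals1 was most like Psap (0.991), Dcakd (0.974), Mrnip (0.964), Abcc1 (0.959) and Vdac1 (0.953). Psap encodes prosaposin, a precursor of lysosomal activators, and Vdac1 a mitochondrial channel. Lgals3 in PDPN+ cells was most like Saa3 (0.966), Abhd5 (0.956), Ces2g (0.948), Dmkn (0.944) and F11r (0.941), and Saa3 encodes an acute-phase protein. No gene was in the lists of Lgals3 for both populations. Among the members, Lgals3 in EpCAM+ libraries had r = 0.569 with Lgals1 and r = -0.613 with Lgals9, and Lgals4 had r = 0.562 with Lgals2 and 0.577 with Lgals9. The Lgals3 values again include the treatment difference by which it was chosen.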

How the data were processed

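RNA of 19 sorted-cell samples was sequenced from low-input libraries whose PCR cycles followed the amount of RNA, per the labels' protocols. Per the file headers, the deposited tables hold estimated counts per transcript, not normalised, TPM values and effective lengths, all from Salmon. Salmon 1.9.0 and GRCm39/mm39 are named in the submitters' processing notes. The sources used here give neither transcriptome release nor strand setting, so reads of overlapping or antisense genes may not be separated.

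Of 147828 transcripts 137063 had an identifier of GENCODE M21, and their counts were added up to 51707 genes and rounded. The 10765 unmatched ones held 1.77 to 8.96% of reads. M21 belongs to GRCm38, another build, so it gave names and transcript sequences and no coordinates. All 35 member transcripts were in the tables.

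The test of counts was edgeR 4.0.16 in R 4.3.3 (TMM, filterByExpr, robust quasi-likelihood), each treatment contrast within its population and the population contrasts over all 19 libraries, at a Benjamini-Hochberg adjusted p under 0.05. CPM values are scaled within the fit of their comparison. Transcript shares were compared by exact permutation. The scripts were tested on simulated data. The alternatives were DESeq2 1.42.0, its size factors, no filter, length offsets, limma 3.58.1 (voom, and log2(TPM + 1)), animal as a block, libraries left out, and 1 fit of all libraries. Same-numbered samples were taken as 1 animal, from the labels; the deviations of paired libraries correlated at -0.107 to 0.0306. Named genes were the 7 members, up to 3 per list and direction by smallest p in the population contrast, and 5 per correlation; list genes named beyond these were Gcnt1 and Pdcd6ip, chosen after their values were seen. Members and lists were chosen with earlier results of these data known. A count of 0 allows up to 3 reads, a limit for counting error alone, because reads without molecular identifiers can be PCR copies of 1 molecule. Lgals6 and Amy2a2 were not analysed here.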

Additional observations from a re-analysis of the deposited data

Results flagged for a closer look

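Within the 4 groups, 52 sets of values (7 gene levels and 6 transcript shares in each group) were screened for 1 library far from the rest, which chance marks in about 1 in 20 groups. In 3 of them 1 library stood apart, all in transcript shares and none in gene levels. In PDPN+ neratinib cells the library of N53178 gave Lgals9-202 87.2% of Lgals9 reads, against 98.3 to 100.0% in the other 3, and gave Lgals8-201 82.9% of Lgals8 reads, against 35.2 to 41.2%. In EpCAM+ neratinib cells the library of N53193 gave Lgals4-201 92.7% of Lgals4 reads, against 93.6 to 93.8% in the other 4.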

How the results depend on the processing

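Under DESeq2 the neratinib contrasts called 13 genes in PDPN+ cells and 8 in EpCAM+ cells in place of 0, and 1 fit of all libraries called 111 in PDPN+ cells. With animal as a block the population contrast called 1849 genes with vehicle and 2353 with neratinib, in place of 6487 and 7627. Those block fits held fewer libraries, only those of the same treatment from animals with both populations. Leaving out single libraries gave 0 calls for each neratinib contrast, 9040.0 to 10632 for the populations, 5731 to 7280.0 with vehicle and 6590.0 to 8639 with neratinib. The cause was not tested. The population differences of Lgals1, Lgals2, Lgals3 and Lgals4 kept their direction and call under all 9 alternatives and without any single library.

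Signs turned for these uncalled differences. In PDPN+ cells with neratinib, single libraries left out gave -0.24 to 0.11 for Lgals1, -0.031 to 1.34 for Lgals2, -0.53 to 0.029 for Lgals9 and -0.11 to 0.73 for Lgals7, and Lgals9 was 0.38 with voom and 0.57 without V53175 and V53188. Between populations Lgals8 was -0.18 on the log2(TPM + 1) scale. With neratinib Lgals8 was -0.71 on that scale, -0.19 with voom and -0.036 with the animal block, and -0.28 to 0.44 without single libraries. With vehicle Lgals9 was -0.51 to 0.058 without single libraries.

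For transcript shares the Lgals8-201 difference of -16.2 points lost its call by share of TPM (-11.8) and with the animal block (-15.5), and ran from -22.9 to -11.1 without single libraries. Lgals3-203 ran from 1.92 to 3.83. The block changed no other call on shares. Depth limits the Lgals2 level and the Lgals4 shares in PDPN+ cells, at 0 to 463 and 431 to 3400 reads.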
